A study of Mus musculus with 8 samples.

Results

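The polyamine and antizyme genes described here are Odc1, Amd1, Srm, Oaz1, Oaz2, Azin1 and Sat1, a set of 7 genes chosen by name as a pathway known for translational control through short upstream reading frames and frameshifting. Of the 21765 genes in the deposited expression table, 6 carry these symbols, and 5 of them (Odc1, Srm, Oaz2, Azin1 and Sat1) passed the filter for testing, a mean of at least 1 transcript per 1000000 (TPM). Oaz1 was listed but fell below that filter, and Amd1 was not analysed here. RNA was taken from polysomes, messenger RNAs loaded with several ribosomes, of the mouse main olfactory epithelium, the tissue that holds the olfactory sensory neurons. Per the labels, all tissue received 100 µg/mL cycloheximide, which holds ribosomes on the RNA, and lysates were separated into about 42 sucrose gradient fractions of 350 µL. Fractions 27 to 34 were pooled as early (lighter) polysomes and fractions 35 to 42 as late (heavier) polysomes, with 50 µL taken from each. Wild-type (WT) mice carried Mex3a flox/flox or Mex3a flox/+ without Cre. Conditional knockout (cKO) mice carried Mex3a flox/flox with Cre, and the Cre line is not reported here. The controls thus also carry at least 1 floxed allele of Mex3a, an RNA-binding protein gene. Both fractions of both genotypes were sequenced in 2 libraries, which makes 4 groups, and the early and late libraries of a number share a lysate name. The labels do not say whether lysates came from separate or pooled animals, so p-values measure the spread between these samples, which may be technical. Age is not given in the sources used here.

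Polyamines (putrescine, spermidine and spermine) are small cations that bind RNA and support translation and growth. Odc1 makes putrescine from ornithine and is the usual rate-limiting enzyme, Amd1 provides the aminopropyl donor, and Srm joins them into spermidine. The antizymes Oaz1 and Oaz2 bind the ODC protein, inhibit it and send it to the proteasome, while Azin1, an inactive relative of ODC, binds antizyme and so frees ODC. Sat1 acetylates spermidine and spermine, which starts their breakdown or export. High polyamine levels favour a +1 ribosomal frameshift that antizyme mRNAs need for full-length protein, and reduce translation of Amd1 and Azin1 through upstream reading frames.

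The frameshift sites are shown first, since the 2 antizyme mRNAs carry nearly the same one. Capitals mark the last codon of the first frame and the stop codon after it, whose first base is skipped when the ribosome shifts. The sequences were read from GENCODE M21 transcripts on GRCm38, and both lie on the plus strand.
Oaz1, chr10:80828280-80828306: cctcggtggtgcTCCTGAtgtccctca
Oaz2, chr9:65686257-65686283: cctctgtggtgcTCCTGAtgcccctca
In Oaz1 the first frame holds 68 codons before the stop and the shifted frame 159. In Oaz2 the first frame holds 32 codons and the shifted frame 157. A ribosome that does not shift therefore leaves the Oaz2 mRNA after a short reading frame.

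Upstream open reading frames of at most 30 bases are shown next for the members whose annotated mRNA holds them. Capitals run from the upstream ATG to its stop codon, and coordinates cover the capitals only.
Odc1, plus strand, chr12:17544921-17544947: cATGACGACGTGCTCGGCGTATAAGTAGc
Amd1, minus strand, chr10:40302155-40302175: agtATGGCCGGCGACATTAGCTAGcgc
Azin1, minus strand, chr15:38514482-38514505: ctgATGATAGGGGGTTCCATCTCCTAActt
Azin1, minus strand, chr15:38501507-38501536: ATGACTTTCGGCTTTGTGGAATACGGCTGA
Sat1, minus strand, chrX:155216271-155216285: gtcATGGTGCCAGCCTGActg
The Odc1 frame shown encodes 8 residues, that of Amd1 6, those of Azin1 7 and 9, and that of Sat1 4. A frame of 10 codons in Odc1 and 1 of 17 codons in Azin1 also end before the main start. Both are longer than 30 bases and are not shown. The 9-codon frame of Azin1 ends 1 nt before the start codon of the protein. The mRNA of Odc1 holds 2 upstream ATGs in all, that of Amd1 1, that of Azin1 3 and that of Sat1 2, while those of Srm, Oaz1 and Oaz2 hold 0. Of the 2 in Sat1, 1 opens a frame that ends beyond the main start and is not shown. An upstream ATG is common, being present in 52.0% of the 14675 tested genes with an annotated coding sequence. The regulatory frame described for Azin1 starts at a codon other than ATG and was not searched for.

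On GRCm38, Odc1 lies at chr12:17544794-17551505 on the plus strand, Srm at chr4:148591503-148594993 on the plus strand and Oaz2 at chr9:65668001-65690300 on the plus strand. Azin1 lies at chr15:38487427-38519266 and Sat1 at chrX:155213132-155216449, both on the minus strand. Several members have near copies elsewhere, which bears on how reads could be assigned. In Odc1, 42.2% of the transcript's 50-base words also occur in transcripts of 15 other genes. The share was 12.0% in Oaz2, 5.1% in Sat1, 2.4% in Srm and 0 in Azin1. How the authors assigned such reads is not given in the sources used here, so levels of Odc1 and Oaz2 are less certain than those of the others. Azin1 overlaps an antisense gene, Gm49077. The library kit marks strand, but whether counting used it is not given in the sources used here.

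Depth, inferred from the steps of the TPM values, ran from 7776792 reads in cKO late replicate 2 to 12771079 in WT late replicate 2. The targeted gene, Mex3a, was checked first. Its deposited TPM in WT libraries was 97.4 and 115.6 (early) and 93.2 and 95.6 (late), against 13.9 and 19.8 (early) and 11.1 and 13.8 (late) with the deletion. WT early replicate 2, with 115.6, carries the genotype tag of the cKO mice against its title and was kept as WT. All 6 markers of mature olfactory neurons that were looked up were listed, and they summed to between 4975 and 9086 scaled TPM per library. Marker sums of supporting sustentacular cells (3 genes) were 944 to 1319 scaled TPM in early and 3159 to 3882 in late libraries. Immune marker sums (3 genes) were 135 to 148 in WT early against 192 to 206 in cKO early, and 81.7 to 90.6 in WT late against 108 to 124 in cKO late libraries. Red blood cell markers, of which 1 of 3 was listed, were at 31.9 to 46.9 in WT and 50.0 to 58.7 in cKO libraries. No listed marker was at 0 in every library, and none was called between genotypes.

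Oaz2, an antizyme, had the highest mean level of the tested members, at 155.7 TPM over the 8 libraries. Odc1 followed with 99.7 and Azin1 with 97.5, then Sat1 with 69.2 and Srm with 45.0 TPM. TPM is a value per transcript length and is relative to all other transcripts of the same library, so it gives a share of the RNA in a fraction and not the amount of RNA there. In bulk tissue, fewer cells of a type and less RNA per cell cannot be told apart. In the early libraries Oaz2 stood above every other member, and the ranges of Odc1 (102.4 to 113.6 TPM) and Azin1 (100.5 to 115.3 TPM) overlapped. Sat1, at 95.6 to 101.6 TPM, lay below Odc1 in each early library. Oaz1, the widely expressed first antizyme, was listed at 0 in 7 of 8 libraries and at 0.212 TPM in cKO early replicate 2. Of its 50-base words, 53.9% also occur in the transcript of its pseudogene Oaz1-ps, and whether that sharing bears on the values was not tested. Odc1, with 42.2% of its words shared with 15 other genes, was at 99.7 TPM. Hnrnpa1, a gene outside the set with 46.4% of its words shared, was at 0.576 to 1.98 TPM over the 8 libraries. Oaz1 was given no fold change, since it fell below the filter.

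**Figure D1:**
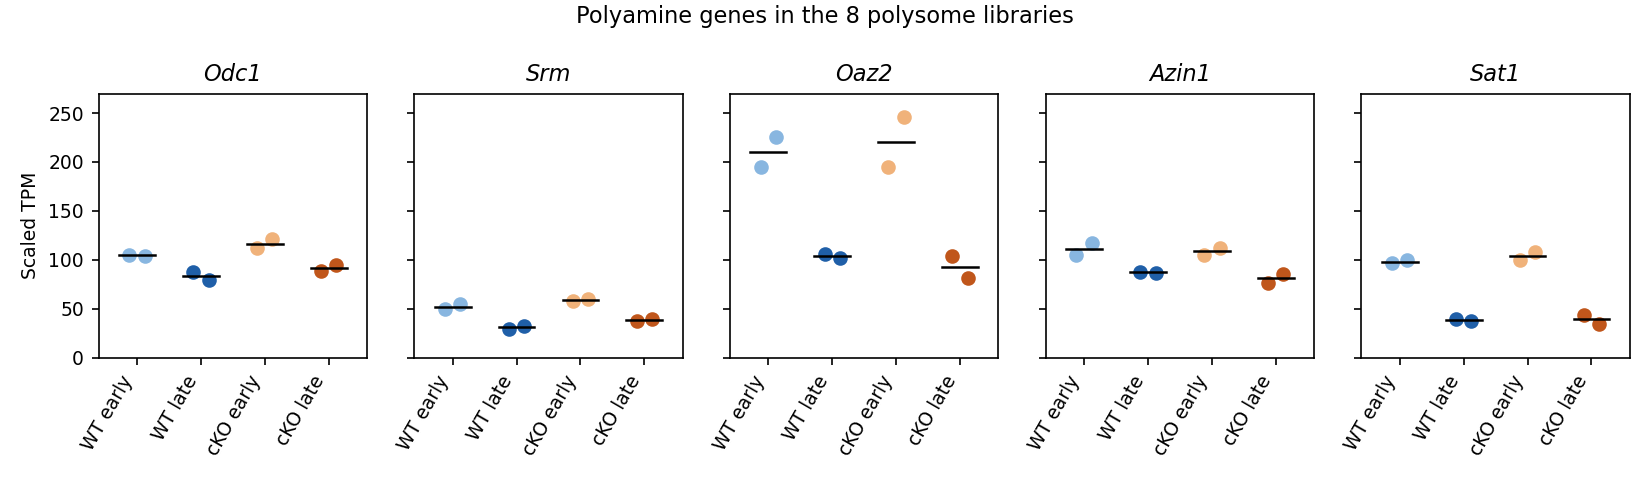
Scaled TPM (y axis) of each tested member in each of the 8 libraries, grouped by genotype and fraction; each point is 1 library and lines are group means. In all 5 genes every late library lies below every early library, as in 30.9% of all tested genes.

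Each of the 5 tested members was lower in late than in early polysomes in every library, an order found in 30.9% of all tested genes. Values below are TPM scaled between libraries by median ratios, given as replicates 1 and 2. Odc1, the putrescine-forming enzyme, stood at 105.0 and 104.3 (WT) and 112.0 and 120.9 (cKO) in early polysomes, against 87.9 and 79.8 (WT) and 89.0 and 94.8 (cKO) in late ones. The 4 late libraries lay below the 4 early ones with no overlap. Over both genotypes Odc1 fell from 110.5 ± 7.71 to 87.9 ± 6.19 scaled TPM (SD, n = 4 libraries each). The change was -0.33 on the log2(scaled TPM + 1) scale (SE 0.067, adjusted p = 0.0024), the smallest of the 5, and -0.21 on TPM as deposited (adjusted p = 0.023). Changes and adjusted p-values are from limma with Benjamini-Hochberg adjustment over 16097 genes, and this scale understates changes of low genes. Srm, the spermidine synthase, stood at 49.3 and 55.1 (WT) and 57.5 and 60.1 (cKO) in early polysomes, against 29.6 and 32.5 (WT) and 37.0 and 39.4 (cKO) in late ones. Its early and late libraries did not overlap either. Srm fell by 0.67 on the log2 scale (SE 0.073, adjusted p = 7.9e-05).

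Oaz2 stood at 194.4 and 225.8 (WT) and 194.8 and 246.0 (cKO) in early polysomes, against 105.9 and 101.5 (WT) and 103.7 and 81.1 (cKO) in late ones. Every early library lay above the highest late one. The change was -1.13 on the log2 scale (SE 0.11, adjusted p = 4.7e-05). The inferred reads behind Oaz2 ranged from 426 to 1964 per library. Azin1, the antizyme inhibitor, stood at 104.7 and 117.4 (WT) and 104.6 and 112.5 (cKO) in early polysomes, against 87.4 and 86.9 (WT) and 76.8 and 85.8 (cKO) in late ones. Its groups did not overlap between fractions, and the change was -0.38 (SE 0.072, adjusted p = 0.0016). Azin1 rested on 1266 to 2869 inferred reads per library, the most of the members. Sat1, the acetylating enzyme, stood at 96.3 and 99.7 (WT) and 99.5 and 108.1 (cKO) in early polysomes, against 39.0 and 38.0 (WT) and 43.9 and 34.3 (cKO) in late ones. It had the largest fall of the 5, -1.36 (SE 0.087, adjusted p = 1.9e-05).

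All 5 tested members were thus called lower in late polysomes in the mean of the genotypes, where 34.6% of all tested genes were called lower and 34.3% higher. On TPM as deposited these shares were 30.3% and 38.9%. The same 5 were called lower within WT, where 27.7% of genes were, and within cKO, where 29.2% were. The median change of the 5 was -0.67 against -0.011 over all tested genes. Within a genotype the calls of Odc1 and Azin1 were less firm than those of Srm, Oaz2 and Sat1. On TPM as deposited, the adjusted p in WT was 0.098 for Odc1 and 0.088 for Azin1, and in cKO it was 0.093 for Odc1. Odc1 also lost its WT call without WT early replicate 1 (adjusted p = 0.074), WT early replicate 2 (0.080) or WT late replicate 2 (0.14), and its cKO call without cKO early replicate 2 (0.087) or cKO late replicate 1 (0.067). Azin1 lost its WT call without WT early replicate 2 (0.13), WT late replicate 1 (0.076) or WT late replicate 2 (0.087), and its cKO call without cKO early replicate 2 (0.053). Marker sums of sustentacular cells were higher in late than in early libraries and those of immune cells and mature neurons (6 genes) lower. A sum follows its most abundant genes. Adcy3, among those 6 neuron genes, changed by 1.58 on the log2 scale in the mean of genotypes. The early and late libraries of a number share a lysate name. The sums therefore compare fractions of the same lysate and do not give its mix of cells. How far each cell type contributed to the changes of the members was not tested.

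**Figure D2:**
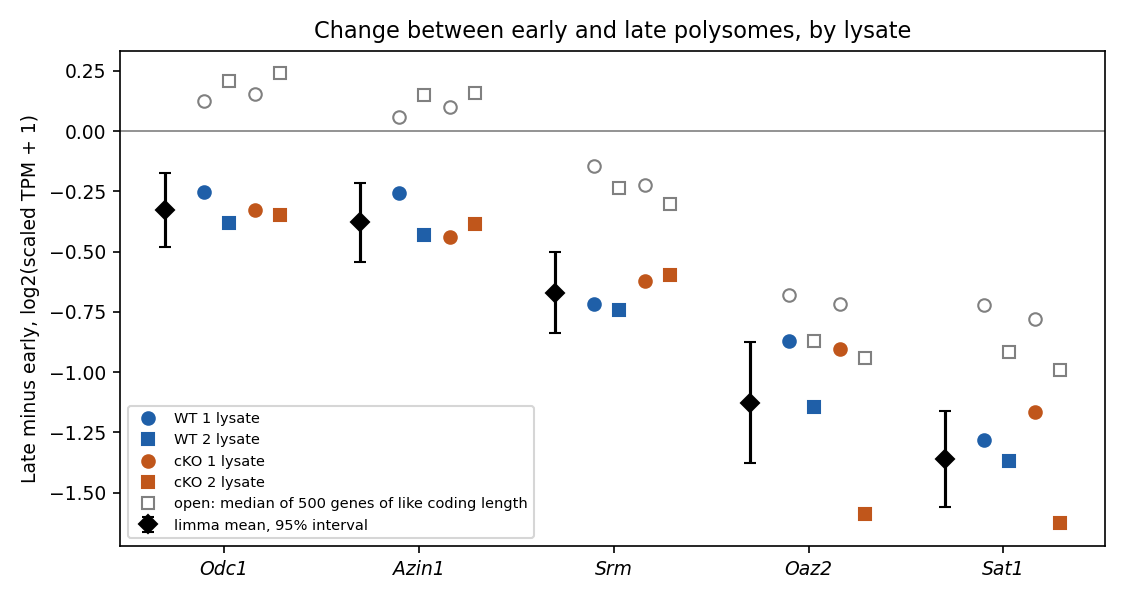
Late minus early change (y axis, log2) of each member in each lysate, with filled circles and squares for lysates 1 and 2 (blue WT, orange cKO), open grey symbols for the median of the 500 genes nearest in coding length in that lysate, and black diamonds for the limma mean with its 95% interval. Every filled symbol lies below 0, and the members differ in how far.

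By lysate, the size of the fall differed between members. The late level of Odc1 was 83.7% and 76.5% of the early level in the WT lysates and 79.5% and 78.4% in the cKO lysates. Azin1 kept a similar share, 83.5% and 74.0% (WT) and 73.4% and 76.2% (cKO), so the ranges of these related genes overlapped. Srm was lower in each lysate, at 60.1% and 59.0% (WT) and 64.3% and 65.6% (cKO). Oaz2 was at 54.5% and 45.0% (WT) and 53.2% and 33.0% (cKO), and Sat1 at 40.5% and 38.1% (WT) and 44.1% and 31.8% (cKO). The ranges of Oaz2 and Sat1 overlapped each other and not those of Srm, Odc1 and Azin1. The lowest shares of Oaz2 and Sat1 came from cKO lysate 2, whose late library is the shallowest.

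A longer reading frame has room for more ribosomes, so the members were set beside genes of like coding length. With the tested genes split into 10 equal groups by coding length, the median change between fractions was -1.12 in the shortest group and 0.50 in the longest. The annotated coding sequence is 1383 nt long in Odc1, 1344 in Azin1, 906 in Srm, 567 in Oaz2 and 534 in Sat1. The shorter the coding sequence of a member, the larger was its fall, though Odc1 and Azin1 are alike in both. The 500 tested genes nearest in coding length had a median change of 0.19 for Odc1 and 0.14 for Azin1, of -0.22 for Srm, of -0.79 for Oaz2 and of -0.87 for Sat1, all on the log2 scale. The members lay below these medians by similar amounts. The difference was -0.52 for Odc1, -0.52 for Azin1, -0.45 for Srm, -0.34 for Oaz2 and -0.49 for Sat1, and it was negative in each of the 4 lysates for each gene. Among those 500 genes, 22.8% lay lower still than Odc1, 23.0% than Azin1, 19.6% than Srm, 17.8% than Oaz2 and 5.8% than Sat1. In the length group of Sat1, 91.1% of genes were called lower in late polysomes, in that of Oaz2 70.4%, in that of Srm 41.6%, and in the group that Odc1 and Azin1 share 22.6%. The difference from the median of the gene's own length group was -0.53 for Odc1, -0.58 for Azin1, -0.40 for Srm, -0.50 for Oaz2 and -0.24 for Sat1. Oaz2 and Sat1 are close in length but lie on either side of a group edge at 555 nt. Coding length is that of the longest annotated coding sequence, and isoforms were not told apart. The 567 nt of Oaz2 are read in full only after the frameshift, and the frame before the stop holds 32 codons. Oaz2 was not compared with genes as short as that first frame, so its difference from genes of like length is less certain.

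**Figure D3:**
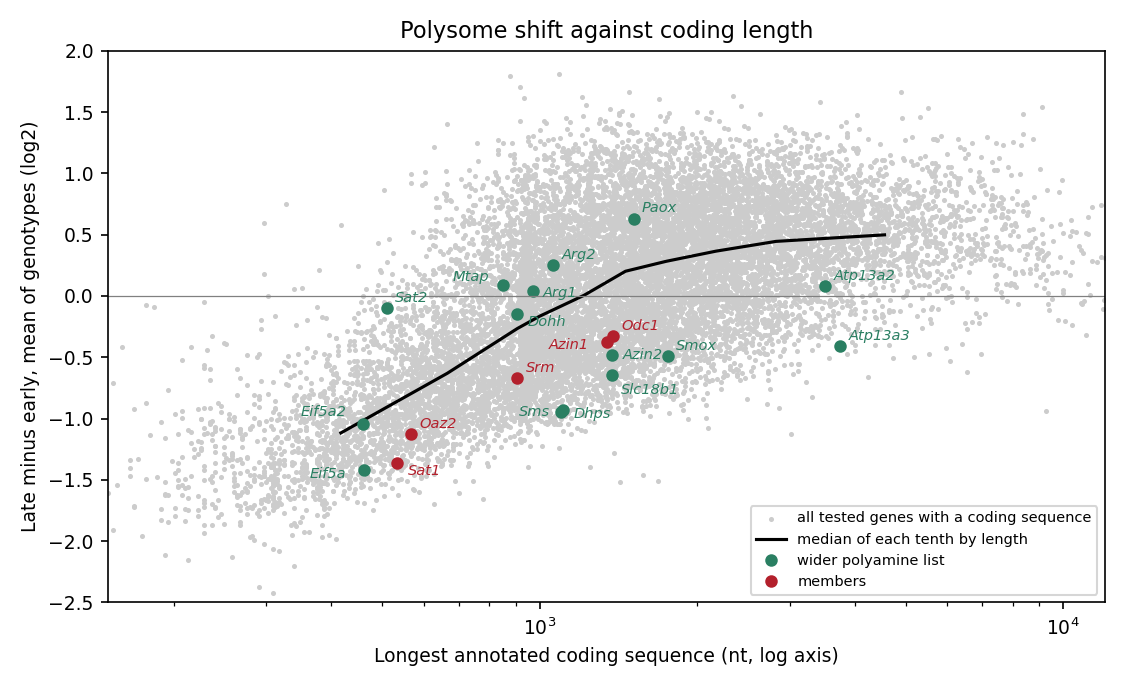
Late minus early change, mean of genotypes (y axis, log2), against the longest annotated coding sequence (x axis, nt, log scale) for all tested genes with a coding sequence (grey), the 5 members (red) and the wider polyamine list (green), with the median of each of 10 equal groups by length as a line. All 5 members lie below the line, and Oaz2 and Sat1 sit among the short genes.

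The RNA of the antizyme Oaz2 was set beside that of its target Odc1 as the ratio of TPM values within a library. Such a ratio needs no scaling between libraries. Oaz1 fell below the filter, so the ratio does not cover antizyme as a whole. Levels of Odc1 and Oaz2, and so the size of their ratio, are less certain because of shared words. The ratio of Oaz2 to Odc1 was 1.85 and 2.17 (WT) and 1.74 and 2.04 (cKO) in early polysomes, against 1.21 and 1.27 (WT) and 1.17 and 0.855 (cKO) in late ones. It was thus lower in late polysomes in 4 of 4 lysates, and in 1 late library Odc1 exceeded Oaz2. The mean change of the log2 ratio was -0.80 ± 0.31 (SD, n = 4 lysates). The ratio of Sat1 to Odc1 ran from 0.889 to 0.956 in early and from 0.362 to 0.493 in late libraries, a change of -1.05 ± 0.19. That of Srm to Odc1 changed by -0.35 ± 0.096 and that of Azin1 to Odc1 by -0.052 ± 0.046, on the same scale. Each of these 4 ratios was lower in late polysomes in all 4 lysates. A two-sided exact sign-flip permutation test over the lysates gave p = 0.125 for each, also after adjustment over the 4, and this is the smallest value that 4 lysates allow. Set beside coding length, the median change of the 500 genes nearest to Oaz2 minus that of the 500 nearest to Odc1 was -0.98. The same difference was -1.06 for Sat1, -0.40 for Srm and -0.043 for Azin1, so genes of like length differed by about as much as the members or, for Oaz2, by more. The length used for Oaz2 includes the frame that is read only after the frameshift. These ratios compare RNA levels and do not measure the proteins or the frameshift.

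**Figure D4:**
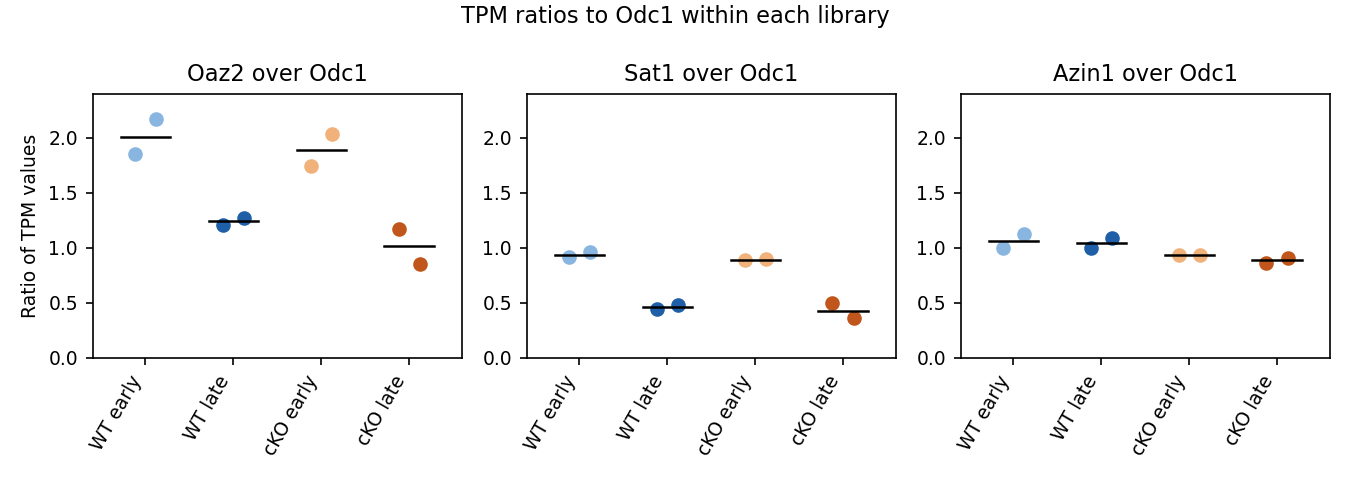
Ratio of the TPM of Oaz2, Sat1 and Azin1 to that of Odc1 (y axis) within each library, by group; each point is 1 library and lines are group means. The ratios of Oaz2 and Sat1 to Odc1 are lower in the late libraries, while those of Azin1 to Odc1 overlap between fractions.

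Between genotypes, none of the 5 tested members passed limma's test, in early or late polysomes or in the lysate means, each the average of a lysate over its 2 fractions. Across all genes, 0.0435% were called in early polysomes, 0.0124% in late polysomes and 0.00621% in the lysate means, so few calls were made anywhere. At an unadjusted p under 0.05 there were 0 members in early polysomes, 1 in late polysomes and 1 in the lysate means, Srm in both. Over all tested genes, 6.65%, 9.36% and 11.3% were below that p. The cKO minus WT difference of Srm was 0.17 in early (adjusted p = 0.83) and 0.29 in late polysomes (95% interval 0.053 to 0.53, adjusted p = 0.47). In the lysate means it was 0.23 (95% interval 0.029 to 0.43, adjusted p = 0.41). The cKO libraries of Srm lay above the WT libraries in both fractions. Odc1 showed the same order on scaled TPM, with differences of 0.15 in early (95% interval -0.066 to 0.37, adjusted p = 0.83) and 0.13 in late polysomes (-0.086 to 0.35, adjusted p = 0.69). Such an order, with cKO higher and no overlap in both fractions, occurred in 6.57% of tested genes. On TPM as deposited, the late libraries of Odc1 overlapped between genotypes (93.0 and 85.6 in WT, 90.6 and 100.2 in cKO). Marker sums also differed between genotypes. Those of immune and red blood cells were higher in cKO in both fractions, and those of Bowman gland cells (2 genes) in late libraries (428 to 467 against 322 to 365 scaled TPM). Sustentacular sums were also higher in cKO late libraries (3571 to 3882 against 3159 to 3437 in WT late) and overlapped between genotypes in early libraries. Sums of immature neuron markers (4 genes) were lower in cKO, at 1572 to 1598 against 1694 to 1740 in early and 1465 to 1474 against 1621 to 1806 in late libraries. Ensheathing glia (3 genes) were at 527 to 535 in cKO late against 605 to 748 in WT late libraries. The part of these cell types in the values of the members was not tested.

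Oaz2 differed by 0.063 in early (95% interval -0.29 to 0.42) and -0.18 in late polysomes (-0.53 to 0.18). Azin1 differed by -0.031 (-0.26 to 0.20) and -0.10 (-0.33 to 0.13). Sat1 differed by 0.081 (-0.20 to 0.36) and 0.012 (-0.27 to 0.29). Libraries of the 2 genotypes overlapped for Oaz2 and Sat1 in both fractions and for Azin1 in early polysomes. The late cKO libraries of Azin1 lay below the late WT ones, as for 20.1% of tested genes. The intervals of these 3 genes include changes of either sign. The late-minus-early changes were also compared between genotypes. This interaction was -0.020 for Odc1, 0.12 for Srm, -0.24 for Oaz2, -0.070 for Azin1 and -0.069 for Sat1, each with an adjusted p of 1.00, and 0.00621% of all genes were called.

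**Figure D5:**
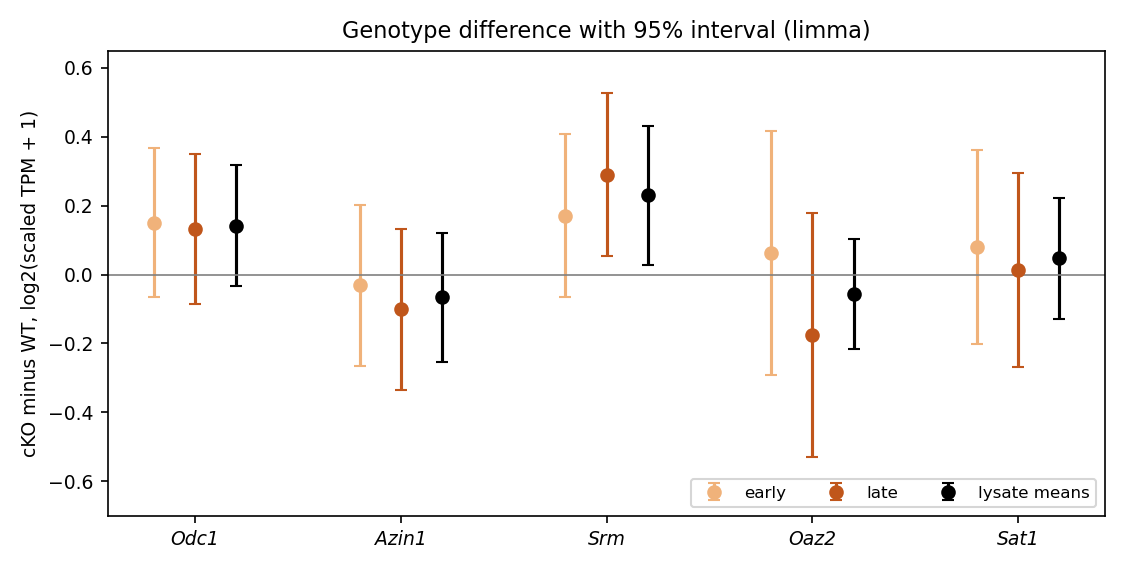
Difference cKO minus WT (y axis, log2 of scaled TPM + 1) of each tested member in early polysomes, late polysomes and lysate means; points are limma estimates and bars 95% intervals. The intervals of Srm in late polysomes and lysate means lie above 0, though neither passed adjustment over all genes.

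Other genes of polyamine synthesis, breakdown, transport and use were taken from a list of 19 genes, of which 18 were listed and 15 passed the filter. Agmat, Oaz3 and Satl1 were below it, and Amd2 was not analysed here. In the mean of genotypes 8 of the 15 were called lower in late polysomes and 1 higher, beside 34.6% and 34.3% of all tested genes, with a median of -0.41 against -0.011. Sms, which makes spermine, changed by -0.95, Azin2, the second antizyme inhibitor, by -0.48, and the spermine oxidase Smox by -0.49. Of the 50-base words of Sms, 28.7% also occur in transcripts of other genes, so its level is less certain. Spermidine is also used to build hypusine, a modification of translation factor eIF5A. Eif5a changed by -1.42, Eif5a2 by -1.05 and the first enzyme of the modification, Dhps, by -0.93. Eif5a and Eif5a2 belong to the shortest of the 10 length groups, in which 91.1% of genes were called lower, and differed from its median by -0.30 and 0.071. Dhps differed from the median of its own length group by -0.94. Dohh, the second enzyme of the modification, had -0.15 and was not called in the mean of genotypes. It was called lower in cKO (-0.26, limma adjusted p = 0.047) and not in WT (-0.032). The interaction of Dohh was not called (-0.23). Among transporters, Atp13a3 changed by -0.41 and the vesicular transporter Slc18b1 by -0.65, while Atp13a2 had 0.078 and was not called. Paox, the acetylpolyamine oxidase that acts after Sat1, rose by 0.63 (adjusted p = 0.0085) in the mean of genotypes. By genotype its change was 0.30 in WT (adjusted p = 0.30, not called) and 0.96 in cKO (adjusted p = 0.0079), and the interaction was not called (0.65, adjusted p = 1.00). Its scaled TPM was 5.25 ± 0.48 in early and 9.07 ± 3.48 in late libraries (SD, n = 4 each), and each late library lay above each early one, as for 31.5% of tested genes. The highest early library of Paox was at 5.72 and the lowest late one at 5.79, on 38 to 69 inferred reads per library. Its highest late value, 13.9, came from cKO late replicate 2, the shallowest library. Mtap (0.086), Arg1 (0.043), Arg2 (0.25) and Sat2 (-0.098) were not called. Of the 15 genes, 0 were called between genotypes, with 0 at an unadjusted p under 0.05 in early and 2 in late polysomes, beside 6.65% and 9.36% of all tested genes.

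For each member the 3 genes with the most similar profile were found as those with the smallest root mean square difference of centred log2 values over the 8 libraries, among genes with a mean of at least 5 TPM. For Odc1 they were Paxip1 (0.033), Ccdc71 (0.038) and Mtg1 (0.041). For Azin1 they were Garem (0.036), Msl2 (0.036) and Klf12 (0.037). For Srm they were Hist1h1a (0.046), Gbas (0.048) and Asna1 (0.050), and for Oaz2 Ube2l3 (0.056), Cbfb (0.056) and Msi2 (0.057). For Sat1 they were Atp5j (0.043), Map1lc3b (0.049) and Spcs1 (0.053). No member was among the 3 nearest genes of another. With 12327 genes compared, such a short list says little on how alike the members are to each other.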

How the data were processed

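RNA of early and late polysomes was measured in 8 libraries of mouse main olfactory epithelium. The authors deposited 1 table of TPM (transcripts per 1000000) for 21765 gene symbols; each library sums to 1000000. The submitters' processing notes name FastQC, cutadapt, STAR, DESeq2 and the build mm10, without versions or roles. Quantification and annotation are not given in the sources used here. The series' design text speaks of sorted cells with HyperTRIBE constructs, whereas the sample labels describe whole tissue with floxed Mex3a; the sample labels were followed, and groups and numbers were taken from the titles.

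Libraries were put on 1 scale by median-ratio factors of 0.940 to 1.07. The log2(scaled TPM + 1) values of the 16097 genes with a mean TPM of at least 1 were tested with limma 3.58.1 (R 4.3.3) in 1 fit of the 4 group means with a mean-variance trend. Tests were two-sided, with Benjamini-Hochberg adjustment and a threshold of 0.05. Genotype was also tested on lysate means over both fractions. The fits were also run on simulated libraries that varied independently, without differences between lysates. That run cannot show how the genotype tests perform on real lysates. Whole reads were inferred from the TPM steps for 19783 genes (100% whole, within 0.001) and used for depth and 1 alternative test. Library names give the early and late libraries of a number the same lysate name, which pairs them; their deviations from group means had correlations over genes of 0.0863 (WT) and 0.0502 (cKO). Coding lengths and sequences came from GENCODE M21 on GRCm38, which may not be the authors' annotation; 91.2% of tested genes had a coding length. Genes named are the 7 members, Mex3a, a wider list of 19 polyamine genes and the 3 nearest profiles per member. Hnrnpa1 is named only for its shared words and Adcy3 only as a marker. The members and lists were chosen with earlier results of these data known. Alternatives were other pseudocounts, filters, scalings, a test on reads, replicate blocks and leaving out each library. Figures were drawn with matplotlib 3.10.9.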

Additional observations from a re-analysis of the deposited data

How the results depend on the processing

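The calls of the 5 members in the mean of genotypes kept their direction and stayed past the threshold under all 75 combinations of member and alternative. Leaving out a library leaves 1 sample in its group, assumed to vary like the others, and in lysate means drops the whole lysate. Genes called late against early in WT were 8826, and 5874 to 8968 with each library left out, the lowest without WT early replicate 2. Genes called between genotypes in early polysomes were 7, 11 without the filter, 4 with that filter at a mean TPM of 5, 19 by voom on inferred reads, and 0 (589 at an unadjusted p under 0.05 by limma) to 9 with each library left out. In late polysomes they were 2, then 1 with pseudocount 0.1, 4 with no filter, 1 at a mean TPM of 5, 14 by voom, and 0 (798 unadjusted by limma) to 13. In the interaction they were 1, then 6 with no filter, 0 at a mean TPM of 5 (324 unadjusted by limma), 0 by voom (403 unadjusted), and 1 to 7. In lysate means they were 1, then 0 with no filter (2115 unadjusted by limma), 56 by voom, and 1 to 10. Without 1 WT library of the fraction compared, Mex3a had adjusted p-values by limma of 0.050 to 0.080 in early and 0.090 to 0.094 in late polysomes.

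The replicate block by lysate changed no call of a member. A replicate block by the number that WT and cKO share gave 7 calls in early, 2 in late polysomes and 85 in lysate means; same-numbered libraries correlated at 0.332 in early and 0.143 in late polysomes, but no label gives the number a shared origin.

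Signs of small genotype differences turned. On TPM as deposited, Sat1 had -0.025 in late polysomes and -0.00029 in lysate means, and Sat2 had 0.012 for late against early. By voom Oaz2 had 0.071 in lysate means, and by quantile normalization the interaction of Odc1 was 0.0038. With each library left out, values ran from -0.10 to 0.23 for Oaz2 and -0.11 to 0.051 for Azin1 in early polysomes, and from -0.35 to 0.00018 for Oaz2 and -0.16 to 0.18 for Sat1 in late polysomes. They ran from -0.0096 to 0.10 for Sat1 in lysate means, and in the interaction from -0.089 to 0.050 for Odc1, -0.15 to 0.012 for Azin1 and -0.24 to 0.10 for Sat1. Late against early they ran from -0.17 to 0.25 for Arg1 and -0.41 to 0.22 for Sat2. The cause was not tested for any of these. TPM as deposited moved the median late-minus-early change of all genes from -0.011 to 0.087. Comparing with 10 equal groups of genes by length was chosen after seeing the data. It moved the difference of Sat1 from -0.49 to -0.24 and that of Oaz2 from -0.34 to -0.50. Coding length from a protein table was not run.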

Other observations

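Sat2, a relative of Sat1 with a coding sequence of similar length (510 nt against 534), had late-minus-early changes of -0.83 and 0.26 in the WT lysates and -0.71 and 0.90 in the cKO lysates on the log2 scale. It fell in both lysates numbered 1 and rose in both numbered 2, on 30 to 79 inferred reads per library.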
